A study of Mus musculus with 34 samples.

Results

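The 9 genes examined here encode hepatocyte transcription factors and nuclear receptors, and they were followed across 34 RNA-seq libraries of mouse tissue. They were Hnf4a, Foxa1, Foxa2, Foxa3, Cebpa, Onecut1, Nr1h4, Nr1i2 and Nr1i3, found by symbol among the 51368 genes of the deposited expression table. Per the labels, RNA came from the snap-frozen liver and heart of 1 wild-type C57BL/6J mouse, 12 weeks old, whose sex the labels give both as female and as male. The study asked how removal of ribosomal RNA (rRNA), the ramp rate of the PCR (how fast the cycler changes temperature) and fragment length alter RNA-seq. All liver libraries were preparations of 1 animal's RNA, so every p-value below measures the spread between library preparations and not between animals.

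The liver groups were 9 polyA-selected libraries (TruSeq Stranded mRNA kit, batch 1), 9 rRNA pull-down libraries (TruSeq Stranded Total RNA kit, batch 2) and 9 rRNA digestion libraries (Ribo-Zero Plus, in the Illumina Stranded Total RNA Prep Ligation kit, batch 2). PolyA selection captures RNA by its tail, the pull-down removes rRNA with probes, and the digestion degrades rRNA enzymatically. Each of these groups held 1 library at every combination of slow, medium or fast ramp with long, medium or short fragments, all from 200 ng of RNA. Unselected liver libraries, made from 20 ng with no rRNA step, a slow ramp and medium fragments, numbered 3 in batch 1 and 3 in batch 2. The single heart library was unselected, in batch 1, with the same ramp and length. Method, kit and, for polyA, batch cannot be told apart, and neither can selection and input amount.

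Hepatocyte identity is kept by a small network of DNA-binding proteins that occupy each other's promoters and those of liver genes. Hnf4a is a nuclear receptor needed for most liver-specific transcription. Foxa1, Foxa2 and Foxa3 are forkhead pioneer factors that open chromatin, Cebpa is a basic leucine-zipper factor of metabolic genes, and Onecut1 (HNF6) is a cut-homeodomain factor of liver and biliary development. Nr1h4 (FXR) senses bile acids, while Nr1i2 (PXR) and Nr1i3 (CAR) sense foreign chemicals and induce the enzymes that clear them. Nr1h4, Nr1i2 and Nr1i3 bind DNA with the partner receptor Rxra.

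The libraries held 19.9 to 41.4 M counts (M, mega) except the slow-ramp, long-fragment pull-down library, which held 1.13 M and is called the low-total library below. Its normalised values lay outside the range of the other 8 pull-down libraries for 7 of the 9 genes, Foxa2 and Nr1i3 being the exceptions, so results that rest on it are given with and without it. Normalised CPM are counts scaled to a common library total after TMM (trimmed mean of M-values) scaling. Hepatocyte markers were present in every liver library, and the 8 cardiomyocyte markers summed to at most 1.05 normalised CPM there. Summed endothelial markers ran from 82.8 to 86.1 normalised CPM in polyA, 236 to 289 in pull-down, 159 to 171 in digestion and 183 to 210 in unselected libraries. Summed hepatocyte markers ran from 67752 to 73754 in polyA, 51848 to 69972 in pull-down, 44150 to 47490 in digestion and 51900 to 53116 in unselected libraries. Summed erythroid markers ran from 295 to 346, 299 to 382, 71.6 to 77.0 and 203 to 247 in the same order. Kupffer cell and stellate cell sums lay below all unselected values in polyA and digestion libraries and above them in pull-down libraries. The cholangiocyte sum lay above all unselected values in polyA libraries and overlapped them in pull-down and digestion. Markers of other cell types therefore moved with the method as well, and their part in the results below was not tested.

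The 9 genes differ in base composition, and 4 coding stretches show the span. For each gene the 60-base window with the most G and C inside 1 coding exon was read from the GENCODE transcripts (GRCm38, sense strand, 5′ to 3′), and capitals mark runs of 6 or more bases that are all G or C. The window of Cebpa lies in its single exon at chr7:35119518-35119577 on the plus strand and holds 91.7% G and C, with an unbroken run of 29. That of Foxa2 lies in exon 2 of 2 at chr2:148044593-148044652 on the minus strand with 86.7%, and that of Foxa1 in exon 2 of 2 at chr12:57542956-57543015 on the minus strand with 83.3%. The window of Nr1h4, shown for contrast, lies in exon 9 of 9 at chr10:89454804-89454863 on the minus strand, holds 66.7% and has no run of 6.
Cebpa: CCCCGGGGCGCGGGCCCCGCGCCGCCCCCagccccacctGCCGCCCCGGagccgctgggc
Foxa2: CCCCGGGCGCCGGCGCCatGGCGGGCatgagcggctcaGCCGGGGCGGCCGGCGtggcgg
Foxa1: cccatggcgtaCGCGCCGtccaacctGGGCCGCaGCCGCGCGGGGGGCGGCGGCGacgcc
Nr1h4: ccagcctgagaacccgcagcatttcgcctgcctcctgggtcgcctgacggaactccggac

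Over the longest annotated transcript, Cebpa (ENSMUSG00000034957, chr7:35119293-35121928, plus strand) was 62.6% G and C, above 98.2% of protein-coding genes, whose median was 48.7%. Foxa2 (ENSMUSG00000037025, chr2:148042877-148046969, minus) had 57.0%, Foxa3 (ENSMUSG00000040891, chr7:19013284-19023538, minus) 54.4%, Foxa1 (ENSMUSG00000035451, chr12:57540628-57546916, minus) 54.2% and Hnf4a (ENSMUSG00000017950, chr2:163506808-163572910, plus) 53.7%. Among the others, Nr1i2 (ENSMUSG00000022809, chr16:38248323-38294824, minus) had 53.2%, Nr1i3 (ENSMUSG00000005677, chr1:171213970-171220701, plus) 53.0% and Onecut1 (ENSMUSG00000043013, chr9:74861921-74891781, plus) 49.7%. Nr1h4 (ENSMUSG00000047638, chr10:89454234-89533585, minus) had the lowest share at 47.2%.

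Per unit of length, Hnf4a and Cebpa stood at the top of the 9 and the Foxa1, Foxa2 and Onecut1 genes at the bottom in every liver group. Levels were computed as TPM, which divide counts by the annotated exon length before scaling to a common total, leaving out rRNA genes, mitochondrial genes and Lars2, whose annotated transcript holds an rRNA-like stretch. In polyA libraries the mean TPM was 359 ± 34.1 (SD, n = 9) for Hnf4a and 292 ± 42.4 for Cebpa, and the ranges of these neighbours overlapped. In digestion libraries the order of that pair turned, with 496 ± 77.6 for Cebpa and 382 ± 14.3 for Hnf4a (n = 9 each), again with overlapping ranges. In the unselected libraries of batch 2 Hnf4a had 293 ± 6.15 TPM and Cebpa 212 ± 8.86 (n = 3 each), and these ranges did not overlap.

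The ligand-sensing receptors Nr1h4, Nr1i2 and Nr1i3, together with Foxa3, held the middle of the order in every liver group. Nr1i3 had 157 ± 10.4 TPM and Nr1h4 137 ± 5.62 in polyA libraries (n = 9), with overlapping ranges. In digestion libraries Nr1h4 had 103 ± 3.49, Nr1i3 98.7 ± 3.68 and Foxa3 90.0 ± 3.65 TPM, and each overlapped its neighbour in the order. This order can depend on the length used. Nr1i3 has 4414 annotated exon bases against 2980 in its longest transcript, Nr1h4 2303 against 2013, and Foxa3 2037 by both. Nr1i2 had 68.0 ± 3.16 TPM in polyA and 52.8 ± 1.43 in digestion libraries.

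The lowest level was that of Foxa1 in pull-down libraries, 2.10 ± 0.578 TPM (n = 9), which placed it above 48.1% of the protein-coding genes detected there. In digestion libraries Foxa1 had 16.7 ± 0.969 TPM and stood above 76.0% of them. The same shares for Cebpa were 97.8% in pull-down and 99.1% in digestion libraries, and for Hnf4a 98.0% and 98.7%. TPM depends on all other RNA in the library, so these levels give the order within a group and were not tested between groups.

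**Figure D1:**
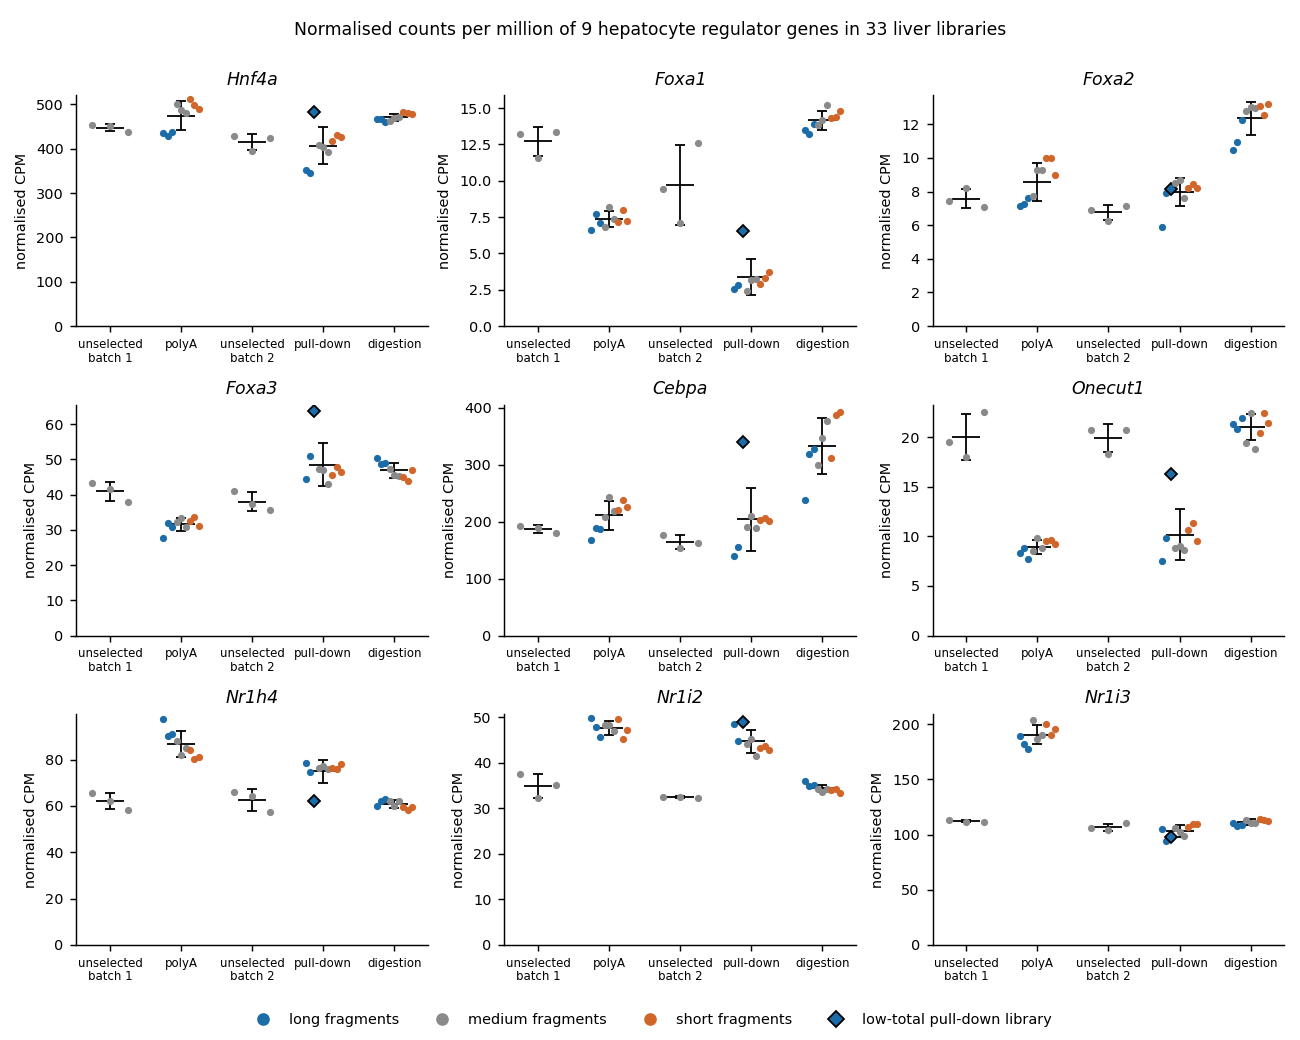
Normalised CPM (vertical axes, linear from 0) of the 9 genes in the 33 liver libraries, grouped by method along the horizontal axes. Points are libraries coloured by fragment length, bars are mean ± SD, and the outlined diamond is the low-total pull-down library. Foxa1 lies between 13.2 and 15.2 in digestion and between 2.40 and 6.54 in pull-down libraries, while Nr1i3 is raised in polyA libraries alone among the selected groups, from 177 to 204.

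Against the unselected libraries of its own batch, each method moved a different subset of the 9 genes. PolyA selection raised Nr1h4, Nr1i2 and Nr1i3 and lowered Foxa1, Foxa3 and Onecut1. The pull-down lowered Foxa1 and Onecut1 and raised Foxa3, Cebpa, Nr1h4 and Nr1i2. The digestion raised Hnf4a, the 3 Foxa genes and Cebpa and lowered none. Calls are edgeR quasi-likelihood tests with a Benjamini-Hochberg adjusted p under 0.05 over the 15422 genes tested, with ramp and length as covariates, and all 9 genes were tested.

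The share of all tested genes called higher after polyA selection was 25.6%, and lower 24.8%, beside 3 higher and 3 lower of the 9. For the pull-down the shares were 17.5% higher and 15.3% lower, beside 4 and 2 of the 9. For the digestion they were 7.08% higher and 7.64% lower, beside 5 and 0 of the 9. The median log2 fold change of the 9 was 0.25, 0.28 and 0.21 in these comparisons, against 0.04, 0.06 and 0.04 over all genes tested. rRNA genes, mitochondrial genes and Lars2 took 85.6 to 86.4% of the counts of unselected liver libraries and 2.98 to 26.2% of those of selected ones, so all changes are relative to the other genes. Scaled by library totals alone, the median of all genes shifted by 2.63, 2.25 and 2.81 log2 units in the 3 comparisons. With that scaling and no adjustment for the shift, 44 of the 53 called changes of the 9 genes over the edgeR comparisons kept their sign. Relative to the median of all genes, which by construction undoes a shift common to all genes, 53 of 53 did. Unselected libraries of batch 2 did not pass the test against those of batch 1 for any of the 9 or for any other gene with edgeR (0% called, 848 with an unadjusted p under 0.05). Among the 9, Foxa1 alone had an unadjusted p under 0.05 there (-0.39 ± 0.16, edgeR adjusted p = 0.82). DESeq2 called 18 genes there, 0 of them among the 9.

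Cebpa had the largest rise in digestion libraries. The 9 digestion libraries ran from 238 to 392 normalised CPM with a median of 328, against 177, 153 and 162 in the 3 unselected libraries of batch 2. All 9 lay above all 3. The fitted log2 fold change was 1.17 ± 0.15 (SE, edgeR adjusted p = 5.5e-07), and the means differed 2.03-fold. In pull-down libraries Cebpa ran from 139 to 339 with a median of 201, and the groups overlapped, 2 of the long-fragment libraries being the lowest and the low-total library the highest. Its log2 fold change was 0.42 ± 0.14 (edgeR adjusted p = 0.022), and 0.29 ± 0.07 without the low-total library (adjusted p = 0.0020). PolyA libraries ran from 168 to 243 with a median of 218, against 193, 188 and 180 unselected. That difference did not pass with all libraries (0.33 ± 0.14, edgeR adjusted p = 0.053) and passed without the low-total pull-down library, which shares the fit (0.29 ± 0.07, adjusted p = 0.00068).

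Foxa1 had the widest span between methods. Its unselected libraries held 9.41, 7.09 and 12.6 normalised CPM in batch 2, from 34 to 60 counts each, and 13.2, 11.6 and 13.4 in batch 1. All 9 digestion libraries, from 13.2 to 15.2 with a median of 14.2, lay above the first 3 values, and they overlapped those of batch 1. Every pull-down library lay below them, from 2.40 to 6.54 with a median of 3.15. PolyA libraries ran from 6.60 to 8.21 with a median of 7.20, also without overlap with their reference. The log2 fold changes were 0.60 ± 0.13 for digestion (edgeR adjusted p = 0.0014), -1.63 ± 0.15 for pull-down (adjusted p = 2.3e-10) and -0.74 ± 0.13 for polyA (adjusted p = 1.3e-05).

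Foxa2 and Foxa3, like Foxa1, rose in digestion libraries, and neither was called lower in pull-down libraries. Foxa2 ran from 10.5 to 13.2 normalised CPM in digestion, all above the 6.90, 6.25 and 7.12 of the unselected libraries, a log2 fold change of 0.94 ± 0.12 (edgeR adjusted p = 6.5e-07). In polyA libraries it ran from 7.14 to 9.97 and overlapped its reference, with 0.25 ± 0.12 (adjusted p = 0.12). In pull-down libraries the value was 0.29 ± 0.12 (adjusted p = 0.11).
Foxa3 ran from 27.7 to 33.7 normalised CPM in polyA libraries, all below the unselected 43.3, 41.6 and 38.0. It fell by 0.40 on the log2 scale (SE 0.08, edgeR adjusted p = 0.00016), and the sign turned when libraries were thinned to 1.13 M counts. In pull-down libraries Foxa3 rose by 0.29 ± 0.08 (adjusted p = 0.0071) and in digestion libraries by 0.28 ± 0.08 (adjusted p = 0.019). Both of these calls were lost without replicate 3 of the batch 2 unselected libraries (adjusted p = 0.056 and 0.12), and the digestion call also without replicate 2 (adjusted p = 0.085).

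Onecut1 was low in polyA and pull-down libraries. Unselected libraries held 19.6, 18.0 and 22.5 normalised CPM in batch 1 and 20.7, 18.3 and 20.7 in batch 2. PolyA libraries ran from 7.72 to 9.85 with a median of 8.85, a log2 fold change of -1.24 ± 0.11 (edgeR adjusted p = 1.3e-10). Pull-down libraries ran from 7.53 to 16.3 with a median of 9.52, a change of -1.15 ± 0.11 (adjusted p = 1.6e-09). Digestion libraries ran from 18.8 to 22.5 and overlapped the unselected ones, with 0.01 ± 0.11 (adjusted p = 0.99). An overlapping annotated gene on the same strand, Gm20649, may take up Onecut1 reads, and its count was 0 in all 6 unselected liver libraries and 85.8 to 206 in digestion libraries. Summed over both genes, the level was 25.0 ± 0.844 normalised CPM in digestion (n = 9) and 19.9 ± 1.37 in unselected libraries of batch 2 (n = 3), 10.7 ± 1.68 in polyA and 11.6 ± 1.88 in pull-down. Fitted as this sum, the changes were -0.98 ± 0.11 in polyA (edgeR adjusted p = 2.0e-08), -0.90 ± 0.12 in pull-down (adjusted p = 2.5e-07) and 0.26 ± 0.11 in digestion libraries (adjusted p = 0.11). The digestion value for Onecut1 alone is therefore uncertain, while both low groups stayed low in the sum.

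Hnf4a changed little. Its unselected libraries held 453, 450 and 439 normalised CPM in batch 1 and 428, 394 and 423 in batch 2. PolyA libraries ran from 428 to 512 with a median of 488 and overlapped their reference, 0.11 ± 0.07 on the log2 scale (edgeR adjusted p = 0.16). Pull-down libraries ran from 346 to 483 and also overlapped, with -0.01 ± 0.07 (adjusted p = 0.95). The digestion libraries, from 461 to 483, lay above all 3 of their reference, a rise of 0.21 ± 0.07 (adjusted p = 0.029). That call was lost without replicate 2 (0.18, adjusted p = 0.16) or replicate 3 (0.23, adjusted p = 0.057) of the batch 2 unselected libraries.

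Among the ligand-sensing receptors, Nr1i3 rose in polyA libraries and not in the others. It ran from 177 to 204 normalised CPM with a median of 190, against 114, 111 and 111 unselected, without overlap, and the log2 fold change was 0.75 ± 0.04 (edgeR adjusted p = 7.6e-16). In pull-down libraries it had -0.06 ± 0.04 (adjusted p = 0.31, DESeq2 -0.13 with adjusted p = 0.019) and in digestion libraries 0.05 ± 0.04 (adjusted p = 0.48).
Nr1h4 ran from 80.5 to 97.6 in polyA libraries, above the 65.5, 62.3 and 58.4 of its reference, with 0.48 ± 0.06 (edgeR adjusted p = 1.5e-07). The pull-down change was 0.28 ± 0.06 (adjusted p = 0.00066) and the digestion change -0.05 ± 0.06 (adjusted p = 0.71). Nr1i2 rose by 0.41 ± 0.05 in polyA (adjusted p = 7.4e-08) and 0.42 ± 0.05 in pull-down libraries (adjusted p = 1.9e-07), with 0.05 ± 0.05 in digestion libraries (adjusted p = 0.71).

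**Figure D2:**
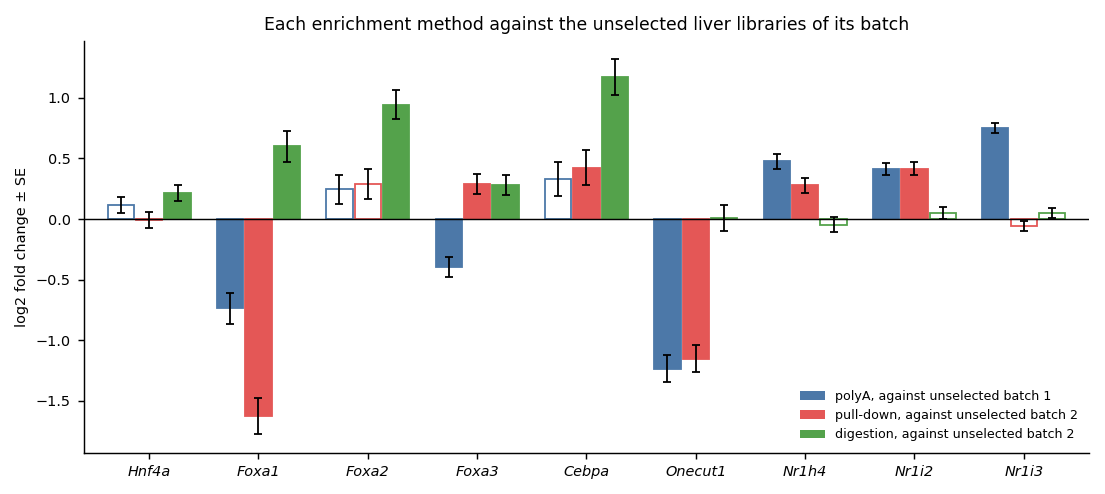
Log2 fold change ± SE (vertical axis) of each of the 9 genes (horizontal axis) in polyA, pull-down and digestion libraries against the 3 unselected libraries that share its batch. Filled bars passed the edgeR test at an adjusted p under 0.05 and open bars did not. The 5 filled digestion bars are all positive, from 0.21 for Hnf4a to 1.17 for Cebpa.

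Across the 9 genes, the digestion changes ordered almost as the G and C share of the transcript (Spearman rho 0.98 over 9 genes), from Nr1h4 at the bottom to Cebpa at the top, both shown among the windows printed above. Onecut1 entered with 49.7% over its longest transcript and its uncertain change of 0.01, which was 0.26 in the sum with Gm20649. Its coding sequence held 61.9%, above the 57.5% of Hnf4a and the 59.4% of Foxa3, so the order depends on the measure used. Over 13402 protein-coding genes the rho with the transcript share was 0.27. For polyA the 9 genes gave -0.22 and for pull-down 0.48. The unselected libraries of batch 2, which the digestion was set against, were themselves ordered by base composition relative to those of batch 1, with a rho of -0.90 over the 9 genes and -0.30 over the protein-coding genes, although no gene passed there with edgeR. Against pull-down libraries in place of unselected ones, the digestion changes of the 9 gave 0.33. These are descriptions across genes that share the same libraries, and the part of base composition in the changes was not tested.

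Compared directly with pull-down, digestion libraries were higher for 6 of the 9 (Hnf4a, Foxa1, Foxa2, Cebpa, Onecut1 and Nr1i3) and lower for Nr1h4 and Nr1i2. Over all genes tested 34.7% were higher and 36% lower. Foxa1 had the largest difference, 2.23 ± 0.07 on the log2 scale (edgeR adjusted p = 4.3e-23), with means 4.15-fold apart. Onecut1 differed by 1.16 ± 0.06, the same as in the sum with Gm20649 (1.16 ± 0.06), Cebpa by 0.75 ± 0.08 and Foxa2 by 0.66 ± 0.05. Foxa3 stood at -0.01 ± 0.04 (edgeR adjusted p = 0.85). Nr1i2 was lower by 0.37 with no overlap between the groups (SE 0.03, edgeR adjusted p = 2.1e-13).

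PolyA libraries were higher than pull-down for Hnf4a, Foxa1, Foxa2, Nr1h4, Nr1i2 and Nr1i3 and lower for Foxa3, beside 36.4% and 36.2% of all genes. Cebpa differed by 0.09 ± 0.08 (edgeR adjusted p = 0.32), and by 0.20 ± 0.04 without the low-total library (adjusted p = 0.00011). Against digestion, polyA libraries were higher for the 3 receptors Nr1h4, Nr1i2 and Nr1i3 (0.51 ± 0.03, 0.47 ± 0.03 and 0.78 ± 0.02) and lower for the 3 Foxa genes, Cebpa and Onecut1. The background was 38.4% higher and 42.2% lower. Hnf4a stood at 0.01 ± 0.04 (edgeR adjusted p = 0.85). These comparisons share libraries with each other, and those with polyA also cross batches.

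Other genes of the network were counted from lists of textbook members, to be read beside the shares of all tested genes: 25.6% higher and 24.8% lower in polyA, 17.5% and 15.3% in pull-down, and 7.08% and 7.64% in digestion libraries. Of 15 other liver-enriched transcription factors, 8 were higher and 0 lower in digestion against unselected libraries (median log2 fold change 0.31), led by Cebpb, the close relative of Cebpa (1.63 ± 0.25, edgeR adjusted p = 2.3e-05), and Atf5, a stress-response factor (0.86 ± 0.14, adjusted p = 6.1e-05). In pull-down libraries 1 was higher and 7 lower (median -0.42), led by Nfia, a nuclear factor I family member (-1.51 ± 0.06, adjusted p = 4.7e-18). In polyA libraries 6 were higher and 5 lower (median 0.11), with Nfia again the most changed at -2.11 ± 0.06 (adjusted p = 1.9e-22).
Of 18 other nuclear receptors and cofactors, 6 were higher and 10 lower in polyA libraries (median -0.47), 3 higher and 9 lower in pull-down (median -0.17), and 3 higher and 1 lower in digestion (median 0.13). Rxra, the partner of the 3 ligand-sensing receptors, rose by 0.26 ± 0.08 in digestion libraries (edgeR adjusted p = 0.028).

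Genes known as targets were counted in the same way and are read beside the same shares. Of 14 measured hepatocyte genes regulated by Hnf4a, Foxa, Cebpa and Onecut1, 11 were higher and 2 lower in polyA libraries (median 0.51), 11 higher and 0 lower in pull-down (median 0.28), and 2 higher and 1 lower in digestion (median -0.11). Ttr, the thyroid hormone carrier, rose by 0.87 ± 0.06 after polyA selection, by 0.69 ± 0.06 after the pull-down and by 0.29 ± 0.06 after the digestion. Apob, the long transcript of the main lipoprotein, fell by 1.62 in polyA libraries (SE 0.13, edgeR adjusted p = 1.8e-11). Of 9 measured bile acid genes tied to Nr1h4 and Hnf4a, 5, 4 and 1 were higher in polyA, pull-down and digestion, and 0 were lower in each. Of 12 xenobiotic genes tied to Nr1i2 and Nr1i3, 8 were higher and 1 lower in polyA, 3 higher and 2 lower in pull-down, and 2 higher and 1 lower in digestion. Gsta1, a glutathione transferase, was higher by 1.14 ± 0.14 in polyA and lower by 0.50 in digestion libraries (SE 0.14, edgeR adjusted p = 0.011).

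Fragment length moved several of the genes within a method. In polyA libraries, long fragments lowered Hnf4a, Foxa2, Cebpa and Nr1i3 and raised Nr1h4 relative to short fragments. Onecut1 also passed as lower, but its sum with the overlapping gene Gm20649 passed as higher. This made 1 higher and 5 lower of 9 beside 26.5% and 26.4% of the 14454 genes tested. Foxa2 held 7.59, 7.23 and 7.14 normalised CPM with long fragments at slow, medium and fast ramp, and 8.97, 9.97 and 9.97 with short ones, a log2 change of -0.42 ± 0.08 (edgeR adjusted p = 0.00017). Hnf4a held 437, 428 and 435 with long and 489, 499 and 512 with short fragments, a change of -0.23 ± 0.07 (adjusted p = 0.0081). Nr1h4 went the other way, with 91.1, 90.1 and 97.6 against 81.3, 80.5 and 84.0 and a rise of 0.16 ± 0.04 (adjusted p = 0.00094). None of these pairs of groups overlapped. Cebpa changed by -0.35 ± 0.15 (adjusted p = 0.048, DESeq2 adjusted p = 0.23) and Nr1i3 by -0.11 ± 0.04 (adjusted p = 0.012). Foxa1 (-0.08 ± 0.08), Foxa3 (-0.12 ± 0.06) and Nr1i2 (-0.01 ± 0.04) did not pass. Without the slow-ramp, long-fragment polyA library 1 gene was called higher and 2 lower, beside 24.1% and 23.7% of the 14617 genes tested in that fit.

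The length results of Onecut1 differed between its own count and its sum with Gm20649. These counts do not separate RNA of Gm20649 itself from Onecut1 reads assigned to it. Gm20649 held 126, 194 and 179 counts in the long-fragment polyA libraries at slow, medium and fast ramp, beside 245, 366 and 295 for Onecut1. It held 0 in all 3 short-fragment ones, beside 444, 347 and 476. Onecut1 counted alone changed by -0.21 ± 0.08 in polyA libraries (edgeR adjusted p = 0.035, DESeq2 adjusted p = 0.069). Counted together with Gm20649, an analysis chosen after the data were seen, the level was 11.7, 13.5 and 13.4 normalised CPM with long and 9.24, 9.63 and 9.53 with short fragments, and the change was 0.42 ± 0.07 (adjusted p = 1.5e-05). In normalised CPM the groups did not overlap for Onecut1 alone (7.72 to 8.79 with long, 9.24 to 9.63 with short fragments) or for the sum. The direction was opposite, so the length change of Onecut1 in polyA libraries is uncertain. The summed change was 0.10 ± 0.08 in pull-down (adjusted p = 0.36) and 0.03 ± 0.06 in digestion libraries (adjusted p = 0.83).

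In pull-down libraries several length calls rested on the low-total library, 1 of 3 long-fragment libraries. Of the 9 genes, 0 passed as lower with it and 4 without it. With it, Nr1i2 alone passed (0.14 ± 0.04, edgeR adjusted p = 0.010), beside 35.7% of all genes in either direction. Without it, Nr1i2 stayed higher (0.13 ± 0.04), and Hnf4a (-0.26 ± 0.03, adjusted p = 1.2e-07), Cebpa (-0.41 ± 0.08, adjusted p = 0.00011) and Nr1i3 (-0.10 ± 0.04, adjusted p = 0.024) were lower, beside 42.9% of 14619 genes. Onecut1 alone also passed as lower there (-0.27 ± 0.08, adjusted p = 0.012), but its sum with Gm20649 did not (0.07 ± 0.07, adjusted p = 0.50). Fitted on the 9 pull-down libraries alone, 0 of the 9 passed with edgeR (0 with an unadjusted p under 0.05) beside 11.2% of genes, and Nr1i2 had 0.13 ± 0.08 (edgeR adjusted p = 0.29). DESeq2 with all libraries called Nr1i2 higher (0.11, adjusted p = 0.039) and Onecut1 alone (-0.24, adjusted p = 0.044) and Nr1i3 (-0.12, adjusted p = 0.0072) lower. Cebpa held 339 normalised CPM in the low-total library, from 415 counts, against 156 and 139 in the other long-fragment libraries and 201, 206 and 203 in the short-fragment ones. The single value above 300 in the group is thus that of the low-total library.

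In digestion libraries 0 of the 9 genes passed the length test with all libraries (edgeR, 2 with an unadjusted p under 0.05, DESeq2 0), beside 6.08% of all genes. Cebpa held 328, 320 and 238 with long fragments at slow, medium and fast ramp and 392, 387 and 312 with short ones, lower in each matched pair, and the groups overlapped, since the fast-ramp short-fragment library lay within the range of the long-fragment ones. Its change was -0.29 ± 0.14 (adjusted p = 0.28) with all libraries and -0.29 ± 0.06 (adjusted p = 0.0040) without the low-total pull-down library, beside 11.2% of all genes. Fitted on the 9 digestion libraries alone, Foxa2 (-0.21 ± 0.05), Cebpa (-0.31 ± 0.03) and Nr1i3 (-0.06 ± 0.02) were lower and Foxa3 higher (0.12 ± 0.03), beside 20.6% of the 13568 genes tested.

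The difference between methods in the length effect passed for 1 gene. The long minus short change of Foxa3 was -0.12 ± 0.06 in polyA and 0.14 ± 0.05 in digestion libraries, a difference of -0.26 ± 0.08 (edgeR adjusted p = 0.015), beside 35.1% of all genes. The call was lost without the fast-ramp, long-fragment polyA library (-0.20, adjusted p = 0.071) or without the medium-ramp, short-fragment digestion library (-0.22, adjusted p = 0.052). Without the low-total library that difference passed for Foxa3, Hnf4a (-0.20 ± 0.03) and Onecut1 alone (-0.23 ± 0.09), beside 40.2%. Summed with Gm20649, the Onecut1 difference had the opposite sign, 0.39 ± 0.09 with all libraries (edgeR adjusted p = 0.0015) and 0.39 ± 0.08 without the low-total one (adjusted p = 0.00039). Between pull-down and digestion 0 of the 9 passed, beside 16.2% of all genes (0 with an unadjusted p under 0.05, DESeq2 0). Without the low-total library Hnf4a (-0.23 ± 0.04) and Onecut1 alone (-0.28 ± 0.10) passed, beside 27.5%, and the sum of Onecut1 and Gm20649 did not (0.03 ± 0.09, edgeR adjusted p = 0.84). Between polyA and pull-down 0 of the 9 passed with edgeR, beside 3.79%, with 3 at an unadjusted p under 0.05 and 1 called by DESeq2 (Nr1h4, 0.20). The summed Onecut1 difference was 0.32 ± 0.10 there (edgeR adjusted p = 0.081), and 0.36 ± 0.10 without the low-total library (adjusted p = 0.023).

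Pooled over the methods, long fragments lowered Hnf4a, Foxa2, Cebpa and Nr1i3 and raised Nr1h4, beside 20.5% lower and 25.7% higher of all genes. Foxa2 had the largest change (-0.27 ± 0.05, edgeR adjusted p = 0.00016) and was lower in 9 of 9 matched pairs of libraries, as was Nr1i3 (-0.09 ± 0.02). Hnf4a and Cebpa were lower in 8 of 9 pairs, the exception being the pair with the low-total library. Without that library the change of Cebpa was -0.34 ± 0.04 in place of -0.23 ± 0.09, and Onecut1 alone also passed (-0.13 ± 0.05), beside 51.5% of all genes in either direction. Its sum with Gm20649 went the other way, by 0.19 ± 0.05 with all libraries (edgeR adjusted p = 0.0061) and 0.18 ± 0.05 without the low-total one (adjusted p = 0.0055). With DESeq2 the pooled call of Cebpa was lost (-0.20, adjusted p = 0.077) and Nr1i2 was called higher (0.06, adjusted p = 0.022), while the other 4 calls were also made. The pooled call of Nr1h4 was lost with scaling that leaves out rRNA genes, mitochondrial genes and Lars2 (0.06, edgeR adjusted p = 0.090). Foxa1 was lower in 8 of 9 pairs and did not pass (-0.10 ± 0.06, adjusted p = 0.14).

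**Figure D3:**
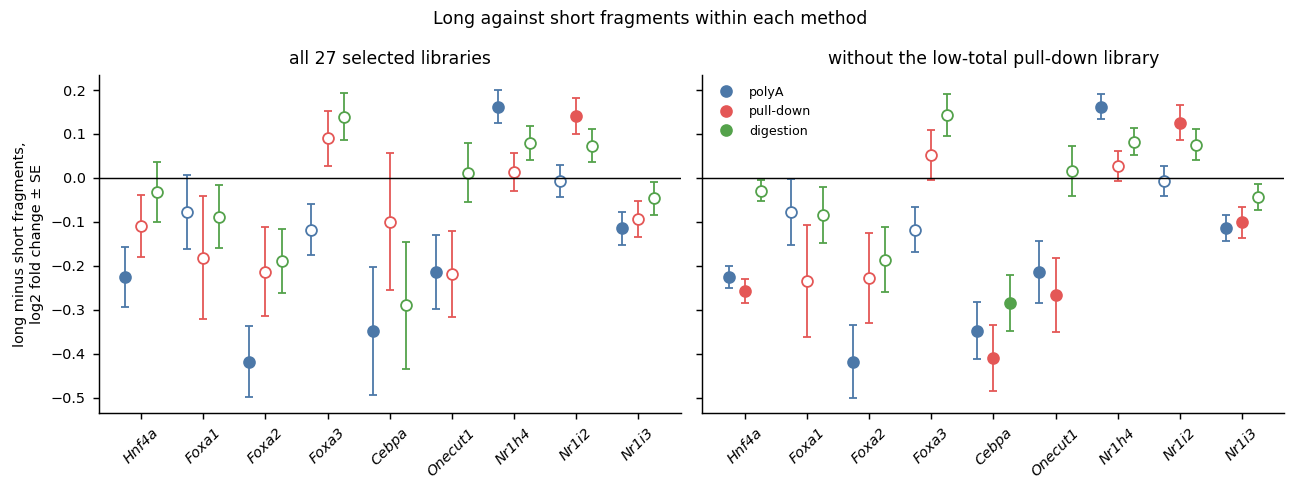
Long minus short fragments, log2 fold change ± SE (vertical axes), for each gene (horizontal axes) within polyA, pull-down and digestion, with all 27 selected libraries on the left and without the low-total pull-down library on the right. Filled points passed the edgeR test and open points did not. Onecut1 is plotted without Gm20649, and its polyA value of -0.21 becomes 0.42 in their sum. The pull-down value of Cebpa moves from -0.10 to -0.41 between the panels, and its error bar shortens in all 3 methods.

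With edgeR, no gene passed the test of ramp rate within digestion libraries when all 27 selected libraries were fitted, while DESeq2 called 3. Cebpa was not among them and passed only in fits without the low-total pull-down library. This comparison was added after the Cebpa values had been seen. At the slow ramp the 3 digestion libraries held 328, 377 and 392 normalised CPM with long, medium and short fragments, at the medium ramp 320, 346 and 387, and at the fast ramp 238, 300 and 312. The fast-ramp value was the lowest at each fragment length, and all 3 lay below every slow-ramp value. The fast minus slow change was -0.37 ± 0.16 with all 27 libraries (edgeR adjusted p = 1.0), where 0% of genes passed, and 1 of the 9 genes, Cebpa, had an unadjusted p under 0.05 (DESeq2 called 0 of 9). Without the low-total library it was -0.37 ± 0.05 (adjusted p = 0.0017), 1 of 3 genes called among 14619 (0.0205%). In the 9 digestion libraries alone it was -0.38 ± 0.03 (adjusted p = 7.7e-09), beside 0.545% of genes called.

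The same change of Cebpa was -0.08 ± 0.16 in polyA libraries (edgeR adjusted p = 1.0). In pull-down libraries it was -0.42 ± 0.16 with and -0.04 ± 0.06 without the low-total library (adjusted p = 1.0 and 0.99). The difference between polyA and digestion in the ramp change, 0.29 ± 0.22, did not pass (adjusted p = 1.0), nor did it without the low-total library (0.28 ± 0.07, adjusted p = 1.0), where 0% of genes passed, so the ramp change was not shown to differ between methods. Within polyA and within pull-down the edgeR ramp test called 0% of genes and 0 of the 9, with 0 and 2 at an unadjusted p under 0.05. DESeq2 called 6 and 12 genes there, 0 of them among the 9. Fitted on the 9 libraries of the method alone, edgeR called 0.942% of genes in polyA and 0% in pull-down. Again 0 of the 9 were called, with 3 and 1 at an unadjusted p under 0.05. Foxa1 in pull-down libraries changed by -0.43 ± 0.11 (adjusted p = 1.0), or -0.38 ± 0.08 without the low-total library (adjusted p = 0.66). Pooled over the methods 0.00692% of genes and 0 of the 9 passed (3 with an unadjusted p under 0.05, DESeq2 0). Foxa1 was lower at the fast ramp in 9 of 9 matched pairs and had a fitted change of -0.14 ± 0.06 (edgeR adjusted p = 1.0). Its mean log2 ratio over the pairs was -0.07 in polyA, -0.08 in digestion and -0.71 in pull-down libraries, where 1 of 3 pairs held the low-total library with 8 counts of Foxa1. Cebpa was lower in 7 of 9 pairs, with a fitted change of -0.29 ± 0.09 (adjusted p = 0.98). The fitted changes of the other 7 genes lay between -0.06 (Foxa2) and 0.05 (Nr1i2).

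**Figure D4:**
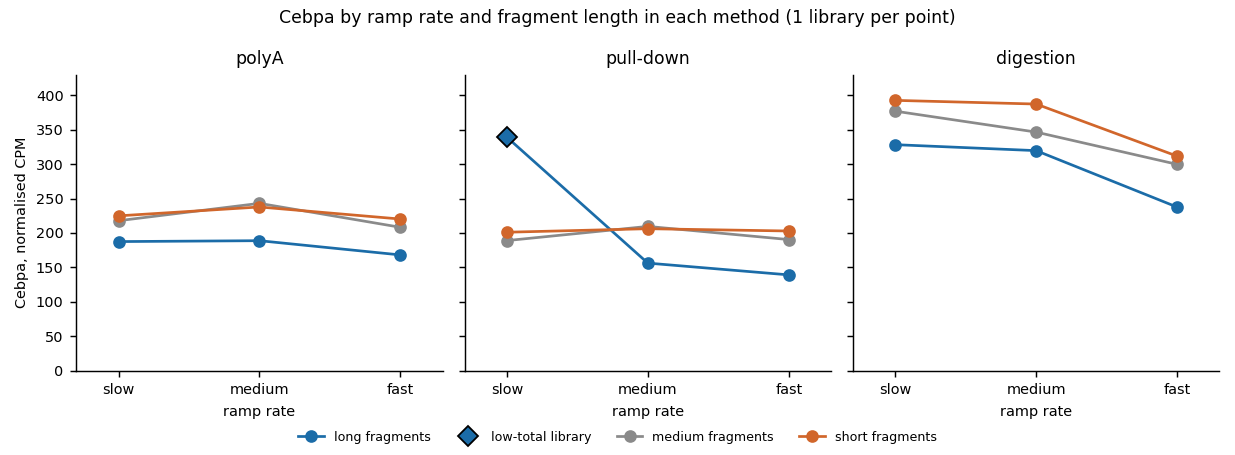
Normalised CPM of Cebpa (vertical axis) against ramp rate (horizontal axes) in polyA, pull-down and digestion libraries, with 1 library per point and lines joining libraries of the same fragment length. The diamond is the low-total library at 339. In digestion the 3 fast-ramp libraries sit at 238, 300 and 312, below the slow-ramp libraries at 328, 377 and 392.

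The 9 libraries of a method differ by design in ramp and length, and their spread was described by gene. The coefficient of variation of Cebpa was 11.8% in polyA, 14.8% in digestion and 27.5% in pull-down libraries, the last falling to 13.7% without the low-total library. Hnf4a varied by 1.64% in digestion and 6.79% in polyA libraries, and Nr1i2 by 2.27% and 3.33%. In pull-down libraries Foxa1 varied by 36.3%, or 14.0% without the low-total library, where it rested on 8 counts.

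As a description of shared patterns, the gene most like a member over the 33 liver libraries was taken by Pearson r of log2(normalised CPM + 0.5) among 13865 genes. For Cebpa it was Cebpb (0.93), followed by Foxq1, a forkhead gene (0.93), and Foxq1 was also first for Foxa2 (0.93). For Foxa1 it was Nfix (0.98), for Onecut1 Eppk1 (0.99) and for Foxa3 Ntn1 (0.96). For Nr1h4 it was Cryz (0.97), for Nr1i2 Ebp (0.98) and for Nr1i3 Gstm1 (0.98). Among the 9 themselves Foxa2 and Cebpa were most alike (0.90) and Onecut1 and Nr1h4 most opposed (-0.94). All these values share the method groups, batches and library depths.

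In the heart library all 9 genes lay below the 3 unselected liver libraries of the same batch by 4-fold or more, where 13.3% of 13052 genes did so. With 1 heart library there was no test. In bulk tissue, fewer cells of a type and less RNA per cell cannot be told apart. Values here are normalised over these 4 libraries alone, and the intervals, exact Poisson at 95%, cover counting error only.

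Hnf4a had 13 counts in heart against 2025 to 2200 in the liver libraries, a level 250-fold lower (interval 146 to 469). Cebpa had 19 counts against 845 to 936, 71.3-fold lower (45.7 to 118). Nr1h4 had 5 counts against 280 to 318, 90.0-fold lower (38.6 to 277). Heart held 0 counts of Foxa1, Foxa2, Foxa3 and Nr1i2, which against a floor of 3 counts in that library made liver at least 30.7-, 18.3-, 99.0- and 84.4-fold higher. With the Poisson upper limit for 0 counts in place of that floor, these were 25.0-, 14.9-, 80.5- and 68.7-fold. Onecut1 had 1 count, a ratio of 145 (26.1 to 5740), and Nr1i3 had 2, a ratio of 407 (113 to 3357). Hepatocyte markers summed to 0.349% of their liver level in the heart library, beside 0.401% for Hnf4a, 1.40% for Cebpa and 1.11% for Nr1h4. All 8 cardiomyocyte markers were higher in heart and 5 of them were at 0 in the 3 liver libraries. Whether the few heart counts came from heart cells was not tested.

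Other liver regulators and target genes were counted by the same rule, beside 13.3% of all genes at least 4-fold lower and 13.3% at least 4-fold higher in heart. Of the 15 other liver-enriched transcription factors 7 were at least 4-fold lower and 2 at least 4-fold higher in heart, and their summed level was 48.4% of that in liver. Of the 18 other nuclear receptors and cofactors 5 were lower and 2 higher, with a summed level of 51.0%. All 8 tested bile acid genes, 11 of 12 xenobiotic genes and all 14 tested hepatocyte target genes were at least 4-fold lower.

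**Figure D5:**
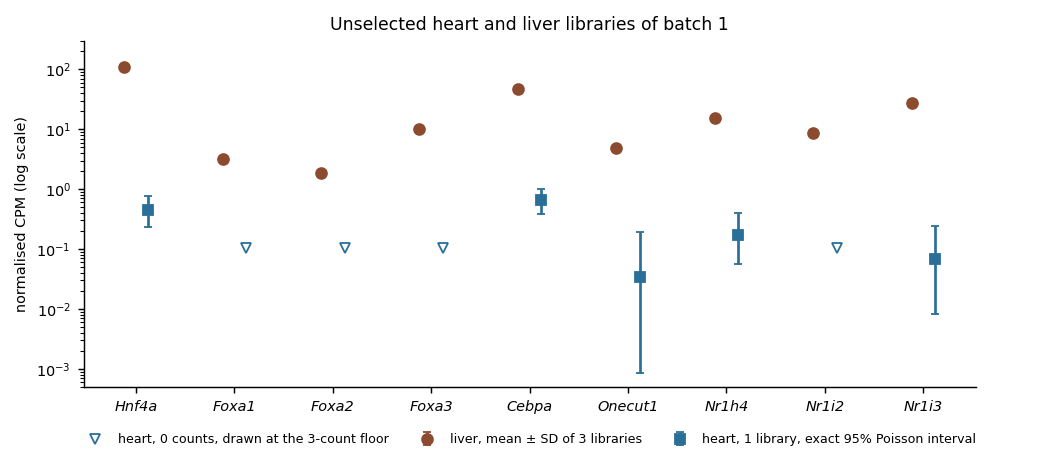
Normalised CPM on a log axis (vertical) of the 9 genes (horizontal) in the unselected liver libraries of batch 1 (circles, mean ± SD of 3) and the heart library (squares with exact Poisson intervals). Triangles mark 0 heart counts, drawn at the 3-count floor. Heart values lie at or under 1.40% of the liver mean for each gene with heart counts.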

How the data were processed

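Gene-level expected counts of 34 RNA-seq libraries were analysed as deposited. Per the labels' protocols, libraries carried adapters with molecular identifiers and had 13 PCR cycles. Per the submitters' processing notes, which give no roles, UMI-tools 1.1.1, Salmon 1.9.0, R 4.4.0 and GRCm38 were used. Whether duplicates were removed by identifier and whether strand was set are not given in the sources used here. Expected counts can be shared between overlapping transcripts, and 66 of 306 values of the 9 genes were not whole. They were rounded before tests. Identifiers were matched to GENCODE M21 of GRCm38 (50896 of 51368, the other 472 holding at most 0.0452% of a library's counts).

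Tests used edgeR 4.0.16 (R 4.3.3, limma 3.58.1): TMM, filterByExpr, quasi-likelihood F-tests and Benjamini-Hochberg adjustment over all genes tested, with the SE taken as the log2 fold change over the square root of F. Method and batch comparisons fitted 33 liver libraries with ramp and length as covariates. Length comparisons fitted the 27 selected libraries with 1 mean per method and length plus ramp, or with method, ramp and length. Ramp within a method was fitted in the same way, a comparison added after the digestion values of Cebpa had been seen. Heart was compared without a test, as called at 4-fold or more and outside the liver range, over genes with at least 10 counts in 1 of 4 libraries. The rule names all 9 genes in every comparison, although in comparisons where few passed the text gives the others by count or range, with at most 3 genes of each companion list and up to 2 most alike genes per member, of which that of Hnf4a is not reported here. The 9 genes and the lists were chosen with earlier results of these data known. The listed symbol Tf had no match.

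Tested on simulated data, the polyA against unselected fit recovered 26% of 1.25-fold and 81% of 2-fold changes (15422 genes). The digestion length fit recovered 22% and 89%, and the digestion ramp fit 31% and 91% (14454 genes). False calls numbered 9, 3 and 12. The simulation changed 100 genes at each fold and gave every library the mean composition of the libraries in its fit. Real unselected libraries hold a larger share of rRNA, so recovery at their counts was not measured. Totals were 23.5 to 41.4 M counts for polyA, 1.13 to 39.2 for pull-down, 20.0 to 30.2 for digestion, 19.9 to 21.7 for unselected liver and 22.3 for heart. Alternatives were library totals, scaling without rRNA and mitochondrial genes and Lars2, DESeq2 1.42.0, no filter, an adjusted p under 0.01, thinning to 1.13 M counts, fits within 1 method, leaving out each library in turn and, added after the data were seen, Onecut1 summed with the overlapping gene Gm20649.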

Additional observations from a re-analysis of the deposited data

Results flagged for a closer look

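In 27 sets of 9 libraries (each gene in each method), 7 held a library that stood far from the other 8 by Dixon's criterion. That criterion assumes 9 alike libraries, while these differed by design in ramp and length, and the sets shared libraries. Its rate of about 1 in 20 by chance therefore does not apply here. Of the 7, 5 were the slow-ramp, long-fragment pull-down library of 1.13 M counts. It was the highest of its group for Foxa1 (6.54 normalised CPM), Foxa3 (63.7), Cebpa (339) and Onecut1 (16.3) and the lowest for Nr1h4 (62.1). The fast-ramp, long-fragment pull-down library was lowest for Foxa2 (5.89), and the fast-ramp, long-fragment polyA library was lowest for Foxa3 (27.7). The long against short change of Foxa3 differed between polyA and digestion by -0.26 on the log2 scale in the edgeR test of that difference. It was lost without the fast-ramp, long-fragment polyA library or without the medium-ramp, short-fragment digestion library.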

How the results depend on the processing

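Counts below are of the 9 genes called. With library totals in place of TMM, fold changes take on the rRNA share of the libraries. Against unselected libraries, Foxa1, Foxa3 and Onecut1 turned to 1.91, 2.26 and 1.41 in polyA, Hnf4a, Foxa1, Onecut1 and Nr1i3 to 2.25, 0.63, 1.11 and 2.20 in pull-down, and Nr1h4 to 2.77 in digestion, where 9 genes were called beside 98.2% of all. Digestion minus pull-down turned to 0.55 for Foxa3, 0.23 for Nr1h4 and 0.19 for Nr1i2, polyA minus pull-down to 0.24 for Onecut1, and polyA minus digestion to -0.24 for Hnf4a. Long minus short in pull-down turned to -0.19 for Nr1h4, -0.065 for Nr1i2 and -0.11 for Foxa3 with 6 called beside 46.7%, and over all methods to -0.0045 for Nr1h4, -0.034 for Foxa3 and -0.017 for Nr1i2. Among comparisons with no call of the gene under either scaling, further changes of sign were not listed. The length difference called 3 between pull-down and digestion and 1 between polyA and pull-down, beside 31.9% and 19.3%.

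Thinned to 1.13 M counts, polyA, pull-down and digestion against unselected called 2, 3 and 1, and polyA against pull-down 4, beside 14.6%, 8.51%, 1.61% and 41.2% of all genes. The polyA, pull-down and pooled length comparisons and the length difference of polyA and digestion called 0, beside 12.7%, 2.09%, 6.59% and 1.61%. Thinning leaves fewer counts by construction, so what limits the calls at full depth was not tested. In the thinned fits Foxa3 turned to 0.033 in polyA against unselected, and Nr1i2 to -0.10 in polyA against pull-down. At an adjusted p under 0.01, digestion against unselected called 3, long minus short 3 in polyA, 0 in pull-down and 2 over all methods, and the length difference of polyA and digestion 0, beside 7.9%, 41.8%, 23.6%, 31.9% and 21.5%. Without a filter, long minus short called 0 in pull-down and 1 over all methods, beside 16.8% and 23.1%. Scaling without rRNA, mitochondrial genes and Lars2 called 3 in the pull-down length comparison and 1 in the length difference of polyA and pull-down, beside 36.7% and 5.74%. DESeq2 called 3 and 1 there, and 2 in the length difference of polyA and digestion, beside 34.2%, 10.7% and 32.7%.

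Without the low-total library, long minus short called 5 in pull-down and 1 in digestion, and fast minus slow 1 in digestion, beside 42.9%, 11.2% and 0.0205% of all genes. The length difference called 2 for pull-down and 3 for polyA against digestion there, beside 27.5% and 40.2%. Within 1 method, long minus short called 0 in pull-down and 4 in digestion, and fast minus slow 1 in digestion, beside 11.2%, 20.6% and 0.545%. Leaving out each library in turn gave 3 to 6 calls for polyA length, 1 to 5 for pull-down length, 0 to 1 for digestion length and for digestion ramp, 0 to 3 and 0 to 2 for the length differences of polyA and of pull-down with digestion, and 3 to 5 for digestion against unselected. With Onecut1 summed with Gm20649, its long minus short change turned to 0.42 in polyA and 0.19 over all methods and its length difference of polyA and digestion to 0.39 with 2 called. With that sum and without the low-total library these were 0.42, 0.18 and 0.39 with 3 called, and calls were 4 for pull-down length, 1 for digestion length and for digestion ramp, and 1 each for the length differences of pull-down with digestion and of polyA with pull-down. No share of all genes called is given here for the ranges over left-out libraries or for the counts with the sum. Whether those counts moved together with such a share was not tested, so they do not show a change particular to the genes followed. The cause of the changes between settings was not tested, except that thinning and the stricter threshold leave fewer counts or calls by construction.

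The batch comparison of the 6 unselected libraries with a replicate block called 0 genes of the 9, as without it. Equal replicate numbers did not mark pairs (r of deviations 0.0172, -0.178 and -0.231). Over all settings 448 counts stayed within 1.5 times the main count and 52 did not.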
